A study of Homo sapiens with 24 samples.

Results

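The comparison set SH-SY5Y cells given a plasmid with a premutation-length FMR1 repeat against the same cells given the empty plasmid. SH-SY5Y is a human neuroblastoma cell line with neuronal features. The V79 group received pCAGIG with 79 CGG repeats in the FMR1 5′ untranslated region, and the Mock group received pCAGIG alone. The arrays were chosen by their titles, V79 (not those marked 8x) and Mock, which gave 6 V79 and 6 Mock arrays of 24 in all. The study's remaining arrays were 6 of V79_8x, which the labels describe as overexpressing the 79-repeat region, and 6 of V21, with the 5′ region carrying 21 repeats. The sources used here do not say what 8x stands for. All groups shared the plasmid backbone, in which the CAG promoter drives the insert, and RNA was taken 24 h after transfection. The sources used here do not give the share of cells that took up the plasmid, so each value is an average over cells with and without it. The array names say V80 where the labels say V79, and the labels were followed. The design text calls the replicates biological; each carries an experiment letter from B to G, which names it here.

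FMR1 encodes FMRP, an RNA-binding protein that restrains the translation of many synaptic mRNAs. Repeat lengths between the normal range and the full fragile X mutation are called premutations, and carriers have a raised risk of a late-onset tremor and ataxia syndrome and of primary ovarian insufficiency. Premutation mRNA is still made, and work on it has dealt with proteins that bind the CGG repeat and with peptides translated from the repeat itself. The comparison asks which mRNAs of the host cells differ once RNA with such a repeat is made from a plasmid.

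Each array gave 1 log2 intensity for each of 62976 features, and all values below are deposited log2 intensities or differences between them. For each gene the brightest feature over the 24 arrays was used, and 15045 genes remained after the dimmest 25% were left out. Differences were tested with limma over all 4 groups in 1 fit, and p-values were adjusted by Benjamini-Hochberg over the 15045 genes, with a threshold of 0.05. Levels are given with the SD over 6 arrays (±), and differences with their standard error (±). Markers of noradrenergic neuroblastoma were bright, with HAND2 at 14.49 ± 0.21 in V79 cells and 14.37 ± 0.32 in Mock cells, and DBH, which makes noradrenaline, at 13.05 ± 0.06 and 13.02 ± 0.12. Of 4 glial markers with a feature, GFAP and SOX10 lay under the limit for dim genes (6.43), at 6.14 and 6.21 in V79 cells and at 6.14 and 6.30 in Mock cells. The other glial markers were above it, with S100B at 8.36 ± 0.09 in V79 cells and 8.43 ± 0.17 in Mock cells, and CNP bright at 15.14 ± 0.06 and 15.08 ± 0.13. Array V79 B and array Mock D stood apart: the median gene lay 0.203 and 0.198 from its group mean on them, against 0.070 to 0.093 on the other 10 arrays. Their deviations from their group means had a Pearson correlation of 0.86 across genes, so both arrays differed from their groups in a like way. V21 B and V21 C also stood apart, and results that rest on these arrays are given with and without all 4.

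Of 15045 genes, 1 changed between V79 and Mock cells (0.00665%). It was SERPINA3, which rose; none fell, at an adjusted p under 0.05 by limma. Without adjustment, 406 genes had a p under 0.05 (2.7%), 268 with higher and 138 with lower values in V79 cells, where 752 are expected by chance if no gene differs. Without the 4 arrays that stood apart, SERPINA3 was still the 1 gene past the threshold. The count at an unadjusted p under 0.05 by limma was then 640. It was 1203 with the experiment letter also in that fit, and 1878 with each array weighted by its quality. In the other alternatives on the same genes it ran from 395 to 572, so this count depended on the fit.

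**Figure D1:**
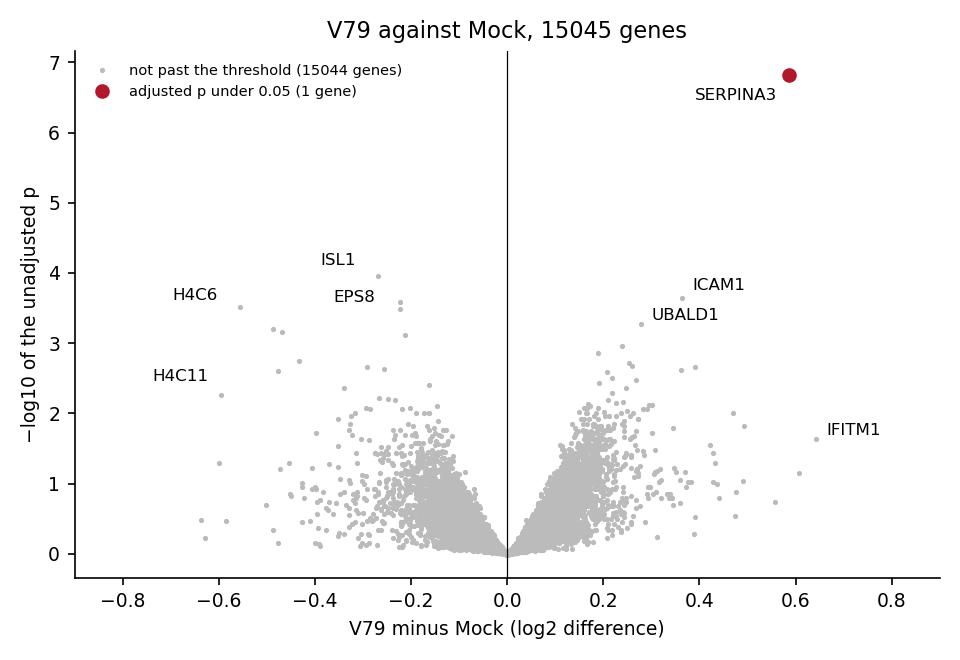
Each point is 1 of 15045 genes, with the V79 minus Mock difference (log2) on the x axis and −log10 of the unadjusted p on the y axis. SERPINA3, in red at a difference of 0.59, is the 1 gene past the threshold, and ISL1, ICAM1 and EPS8 have the next smallest p.

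SERPINA3 encodes alpha-1-antichymotrypsin, a secreted inhibitor of serine proteases that is made in the acute phase response and by reactive astrocytes. On the V79 arrays B to G its log2 intensity was 7.97, 7.77, 7.68, 7.78, 8.03 and 7.86. On the Mock arrays B to G it was 7.42, 7.07, 7.16, 7.41, 7.17 and 7.34. The lowest V79 array lay above the highest Mock array, so the groups did not overlap. The mean was 7.85 ± 0.13 in V79 cells and 7.26 ± 0.15 in Mock cells. The difference was 0.59 ± 0.08, with a 95% interval from 0.42 to 0.75, or 1.5-fold (limma, adjusted p = 0.0023). As bulk RNA was measured, more cells with the transcript and more transcript per cell cannot be told apart.

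The array holds 3 features for SERPINA3, and they did not all show the rise. A feature dimmer than the one used averaged 7.08 ± 0.15 in V79 cells and 6.50 ± 0.09 in Mock cells, a difference of 0.57 ± 0.07 (limma over all features, adjusted p = 0.0018). The groups did not overlap on that feature either. The remaining feature averaged 7.04 ± 0.20 in V79 cells and 6.92 ± 0.13 in Mock cells, a difference of 0.13 ± 0.12 (limma over all features, adjusted p = 1). The sources used here do not place these features on the transcript. SERPINA3 is a dim gene in these cells, as 41.8% of all named genes were dimmer, and a fold of intensity near the dim end of an array may understate the change in transcript.

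With the empty vector as a common baseline, the 21-repeat insert left SERPINA3 at 7.29 ± 0.13, which is 0.02 ± 0.08 from Mock (limma, adjusted p = 0.93). V79 against V21 compares the 79-repeat and 21-repeat inserts directly, since the Mock arrays drop out of it. Insert level and plasmid uptake are not known for either group, so repeat length cannot be told apart from them. The SERPINA3 difference in V79 against V21 was 0.56 ± 0.08 (limma, adjusted p = 0.0045), and SERPINA3 was the 1 gene past the threshold there too (0.00665%). Without the 4 arrays that stood apart, the V79 minus V21 difference of SERPINA3 was 0.48 ± 0.09 (limma, adjusted p = 0.28). No gene then passed in V79 against V21 by limma, and 334 had an unadjusted p under 0.05. In V79_8x cells SERPINA3 averaged 8.14 ± 0.13, which was 0.30 ± 0.08 above V79 cells (limma, adjusted p = 0.085) and did not pass. That value is for the brightest feature. On the dimmer feature that also rose in V79 cells, V79_8x minus V79 was 0.467, and every V79_8x array lay above every V79 array. On the remaining feature it was 0.165.

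The SERPINA3 call depends on how the spread is estimated. With only the V79 and Mock arrays in the fit, the difference was the same and the adjusted p was 0.098, so no gene passed. Leaving out each array in turn gave differences from 0.55 to 0.62 and adjusted p from 0.0016 to 0.013, the highest without Mock F.

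**Figure D2:**
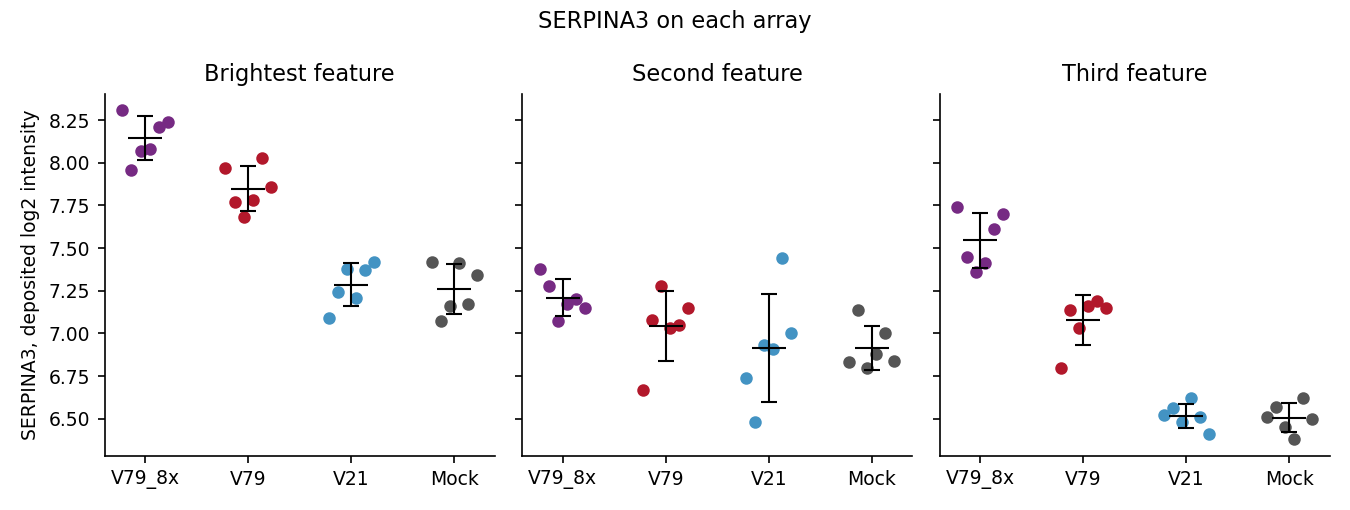
Deposited log2 intensity (y axis) of the 3 SERPINA3 features on each array (points) of the V79_8x, V79, V21 and Mock groups, with the mean (long bar) and SD (short bars). On the brightest and the third feature every V79 array lies above every Mock array, and on the second feature the groups overlap.

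ICAM1 came next among the genes with higher values. It encodes an adhesion molecule for leukocytes and is a classical NF-kB target. It measured 10.81 to 11.06 on the V79 arrays (median 10.88) and 10.44 to 10.66 on the Mock arrays (median 10.53). The groups did not overlap, yet the gene did not pass: the difference was 0.36 ± 0.08 (limma, adjusted p = 0.83). All 10 ICAM1 features gave nearly the same value, with differences from 0.34 to 0.39 and unadjusted p from 0.00012 to 0.0016. Features of 1 gene read the same RNA, so they are no replicates of the condition. With each array weighted by its quality, ICAM1 passed (limma with array weights, adjusted p = 0.0065). ICAM1 in V21 cells lay at 10.43 ± 0.19, which is 0.11 below Mock cells, and V79 against V21 gave 0.47 ± 0.08 (limma, adjusted p = 0.063). The lowest V21 value was 10.12 on V21 C, which stood apart, against 10.38 to 10.70 on the other V21 arrays.

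The other 10 genes with higher values and the smallest p did not pass. UBALD1, a gene of little-known function, averaged 9.24 ± 0.12 in V79 cells and 8.97 ± 0.07 in Mock cells. DOT1L, the methyltransferase of histone H3 lysine 79, averaged 9.17 ± 0.07 and 8.92 ± 0.19. IL4I1, a secreted amino acid oxidase of immune cells, averaged 8.05 ± 0.14 and 7.66 ± 0.17. On these genes, and on FDCSP, a small secreted peptide of follicular dendritic cells, every V79 array lay above every Mock array. FDCSP was near the dim end, at 6.72 ± 0.11 in V79 cells and 6.36 ± 0.09 in Mock cells. The differences of UBALD1, DOT1L, IL4I1 and FDCSP ran from 0.25 to 0.39, each with an adjusted p of 1 by limma. For OSBPL7, a lipid transfer protein, SLC12A7, a potassium chloride cotransporter, VWCE, ULK4, WDR86 and ZNF692 at least 1 V79 array lay within the Mock range, and their differences ran from 0.19 to 0.27 (limma, adjusted p = 1 for each). DOT1L differed less on its other features, by 0.16 and 0.06, as did VWCE by 0.08, SLC12A7 by -0.06 and ZNF692 by -0.01 on theirs. V21 cells were also above Mock cells at ZNF692 (0.23), DOT1L (0.18), OSBPL7 (0.15), WDR86 (0.15) and ULK4 (0.14). V79 minus V21 for these ran from 0.04 to 0.085. V21 minus Mock was 0.12 for IL4I1 and UBALD1, 0.09 for VWCE, and 0.02 for FDCSP and SLC12A7. V79 minus V21 for these ran from 0.16 to 0.34.

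ISL1 had the smallest p among genes with lower values. It is a LIM homeobox factor of sympathetic and sensory neurons and belongs to the regulatory circuit of noradrenergic neuroblastoma. It measured 11.66 to 11.81 on the V79 arrays (median 11.74) and 11.92 to 12.16 on the Mock arrays (median 11.96), with no overlap. The difference was -0.27 ± 0.06 (limma, adjusted p = 0.83) and, of the alternatives run, passed with array weights only (limma with array weights, -0.29, adjusted p = 0.015). V21 cells lay between the groups for ISL1, 0.14 below Mock cells, and V79 minus V21 was -0.13 ± 0.06.

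EPS8, an adaptor that regulates actin and receptor tyrosine kinase signalling, measured 11.33 to 11.46 on the V79 arrays and 11.53 to 11.67 on the Mock arrays. Its difference was -0.22 ± 0.05 (limma, adjusted p = 0.83). The groups also did not overlap on HPCAL4, a neuronal calcium sensor, at 6.50 ± 0.02 in V79 cells and 6.71 ± 0.07 in Mock cells, or on EXOC8, a subunit of the exocyst that tethers secretory vesicles, at 9.08 ± 0.09 and 9.38 ± 0.13. A second EXOC8 feature of similar brightness averaged 8.98 ± 0.27 in V79 cells and 9.06 ± 0.26 in Mock cells, a difference of -0.08 ± 0.15. Of the 12 genes with lower values and the smallest p, 5 were copies of histone H4 (H4C6, H4C8, H4C9, H4C12 and H4C15), described with the histones below. H4C15 is not in the list of histones used there. ANKRD18B, whose other 4 features differed by -0.14 to 0.06, NSL1, a kinetochore protein, and CBR4, a mitochondrial reductase, made up the rest, with differences from -0.26 to -0.16 (limma, adjusted p from 0.83 to 1). V21 cells were also below Mock cells at EPS8 (-0.118), EXOC8 (-0.153), NSL1 (-0.148), ANKRD18B (-0.12), CBR4 (-0.075) and HPCAL4 (-0.045).

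**Figure D3:**
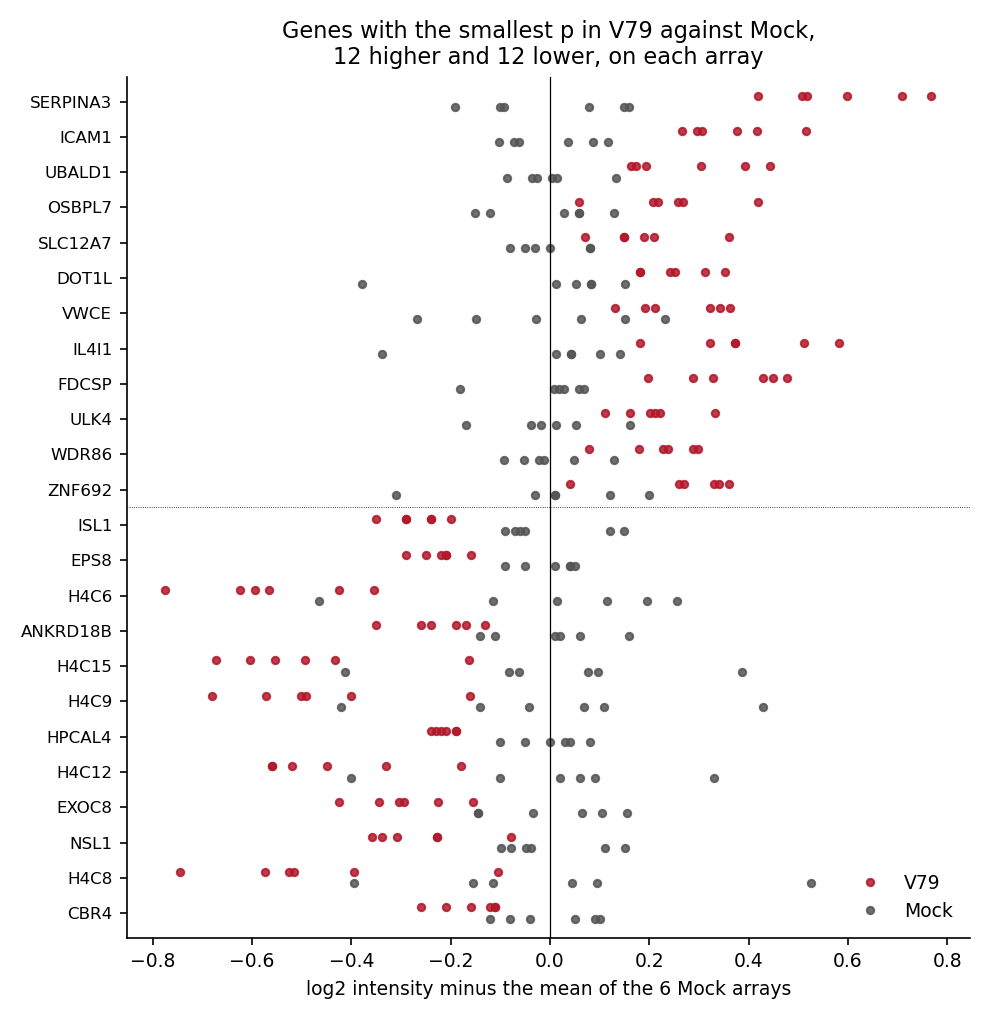
The 12 genes with higher values (upper block) and the 12 with lower values (lower block) in V79 cells that had the smallest p, with each V79 array (red) and Mock array (grey) as a point at its log2 intensity minus the mean of the 6 Mock arrays (x axis). SERPINA3 is the 1 gene of these past the threshold; the histone H4 genes have the widest spread among Mock arrays.

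Over all tested genes, 12 had every V79 array above every Mock array (0.0798%) and 8 had every V79 array below (0.0532%). Besides those named above, the first set held HLA-G, CBS, CRABP2, HAPLN3, IL32 and TMEM9, and the second APOBEC3D, CCDC7, NLRC5 and PPCS. CRABP2, HAPLN3, IL32, TMEM9 and the last 4 are named because their values were seen. Among this many tested genes, some separate completely by chance. The number expected by chance was not computed here, so a lack of overlap alone is no evidence that a gene differs. IL32, an inflammatory cytokine gene, differed by 0.30 ± 0.10, and CRABP2, which carries retinoic acid into the nucleus, by 0.18 ± 0.07. The V79 arrays lay close together at CBS, the enzyme that turns homocysteine into cystathionine. CBS measured 14.70 to 14.73 on the V79 arrays and 14.54 to 14.67 on the Mock arrays. Its difference was 0.11 ± 0.07, with an adjusted p of 1 by limma.

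The V79 arrays bounded most genes to small differences. The median size of a difference was 0.058, and 95% of genes differed by less than 0.18. The 95% interval of the difference lay within ±0.50, or 1.41-fold either way, for 13830 of 15045 genes (91.9%). It lay within 2-fold either way for 14925 genes (99.2%). No gene's difference was over 1 in size, and 11 were over 0.5. Of these 11, IFITM1, TRIM59, SERPINA3 and ASTN2 were higher in V79 cells, and FBRSL1, FAM177B, DNAJC21, H4C11, NKX1-2, H4C6 and CYP17A1 were lower. Most of them varied widely among replicates: FAM177B had an SD of 2.60 in V79 cells and 2.67 in Mock cells, and TRIM59 had 1.08 and 0.096. ASTN2, an astrotactin of migrating neurons, differed by 0.56 over all arrays and by -0.004 without the 4 arrays that stood apart.

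The genes of 31 lists, which hold 809 distinct genes and 708 tested ones, were then set beside all genes. The median difference over all tested genes was 0.0067, and 47.3% of genes had a difference below 0. List medians ran from -0.098 for the replication-dependent histones to 0.10 for NF-kB targets, and 23 of 31 lay within 0.05 of 0. SERPINA3, in the acute phase list, was the 1 listed gene past the threshold. Counts of genes with an unadjusted p under 0.05 are read beside 1.78% of all genes for higher and 0.917% for lower values.

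**Figure D4:**
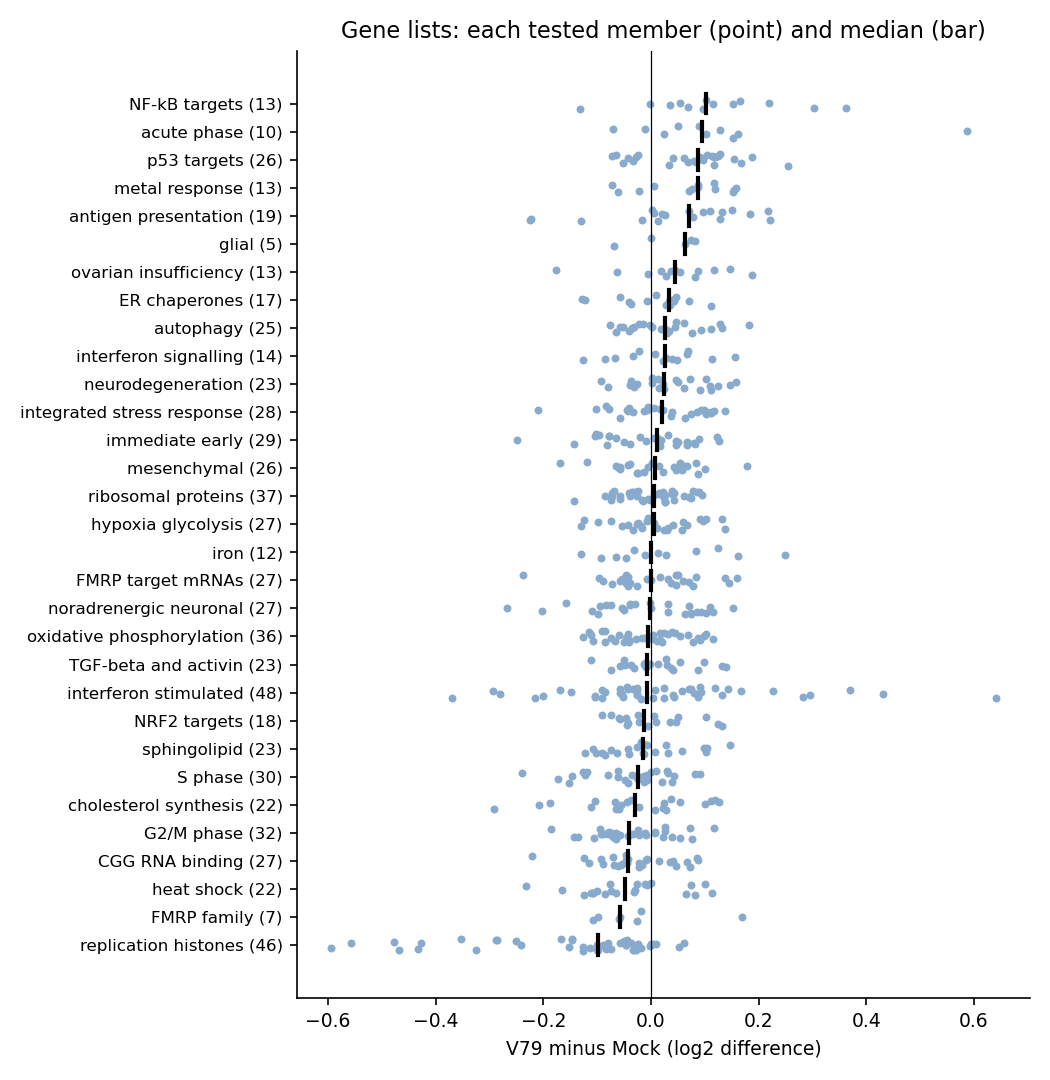
V79 minus Mock difference (log2, x axis) of each tested member (points) of 31 gene lists, with the median (black bar) and the number of tested members in brackets. NF-kB targets have the highest median at 0.10 and the replication-dependent histones the lowest at -0.098.

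Interferon-stimulated genes, which cells switch on after viral RNA or interferon is sensed, split evenly between higher and lower values. Of 48 tested, 24 had higher and 24 lower values in V79 cells, 0 passed, and the median difference was -0.0075. The mean of the 48 genes lay from 8.98 to 9.21 on the V79 arrays and from 9.01 to 9.22 on the Mock arrays, so the groups overlapped almost wholly. Of the 48, 4 had an unadjusted p under 0.05, all with higher values. IFITM1, a membrane protein that blocks virus entry, measured 8.86 to 10.12 on the V79 arrays (median 9.87) and 8.39 to 9.39 on the Mock arrays (median 9.13). All V79 arrays but 1 lay above every Mock array, yet the spread was wide, and the difference of 0.64 ± 0.26 did not pass (limma, adjusted p = 1). The second IFITM1 feature differed by 0.51 ± 0.23. BST2, or tetherin, which holds budding virus at the cell surface, measured 8.37 to 8.74 on the V79 arrays and 8.08 to 8.48 on the Mock arrays, a difference of 0.30 ± 0.10 (limma, adjusted p = 1), and its other feature gave 0.30 as well.

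By role, the medians in V79 against Mock lay on both sides of 0. IFIT and IFITM proteins with BST2 (8 tested) had a median difference of 0.043, from -0.28 for IFIT1 to 0.64 for IFITM1. OAS enzymes and RNA sensors, which detect double-stranded RNA (7 tested), had a median of -0.057, from -0.37 for OASL to 0.043 for IFIH1. STAT and IRF factors, which carry the interferon signal to the nucleus (4 tested), had a median of 0.081. ISG15 and the enzymes that attach or remove it (5 tested) had a median of 0.13, with ISG15 itself at 11.57 ± 0.25 in V79 cells and 11.29 ± 0.15 in Mock cells. None of these genes passed the threshold in V79 against Mock. In V79_8x cells, by contrast, 43 of the 48 genes differed from V79 cells past the threshold (beside 1.15% of all genes), with a median of 1.82. BST2 was 3.04 ± 0.10 and IFITM1 4.71 ± 0.26 higher in V79_8x than in V79 cells (limma, adjusted p = 4.5e-16 and 2.2e-12). The genes for interferons, their receptors and the JAK kinases (14 tested) had a median of 0.026 in V79 against Mock, and IRF3, a factor that RNA sensors activate, differed by 0.16 ± 0.09.

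Antigen presentation genes, which load peptides on MHC class I molecules, had a median difference of 0.070. Of 19 tested, 15 had higher values in V79 cells, and 0 passed. HLA-G measured 14.25 to 14.53 on the V79 arrays and 14.09 to 14.20 on the Mock arrays, with no overlap and a difference of 0.22 ± 0.07 (limma, adjusted p = 1). Class I genes are alike in sequence, and a feature named for one may read another. ERAP2, which trims peptides for class I, differed by 0.22 ± 0.10, or by 0.13 ± 0.09 without Mock G, and NLRC5, the class I transactivator, by -0.22 ± 0.17.

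NF-kB targets had the highest list median, 0.10, with 11 of 13 tested members higher in V79 cells and 0 past the threshold. The mean over the list lay from 9.69 to 9.97 on the V79 arrays and from 9.50 to 9.78 on the Mock arrays. The lowest mean of each group was on V79 B and Mock D, and without the 4 arrays that stood apart the median was still 0.10. Besides ICAM1, TNFAIP2, which tumour necrosis factor induces, had the smallest p, at 10.35 ± 0.07 in V79 cells and 10.20 ± 0.10 in Mock cells (difference 0.15 ± 0.07, limma, adjusted p = 1). Of 10 tested acute phase genes, 8 had higher values and the median was 0.096, or 0.061 without the 4 arrays.

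p53 targets also lay on the higher side, with 19 of 26 above 0, a median of 0.088 and 0 past the threshold. FDXR, a mitochondrial reductase that p53 induces, averaged 13.99 ± 0.13 in V79 cells and 13.80 ± 0.09 in Mock cells, a difference of 0.19 ± 0.07. TP53I3, a quinone reductase, averaged 13.58 ± 0.09 and 13.41 ± 0.08, a difference of 0.17 ± 0.07, and 0.08 on its other feature. Metal response genes, mostly metallothioneins, had 10 of 13 members above 0 and a median of 0.087. MT1E differed by 0.15 ± 0.08 between V79 and Mock cells and by 0.81 between V79_8x and V79 cells (limma, adjusted p = 2.5e-07). On its other, dimmer feature these differences were -0.01 and 0.42. Metallothionein genes are close copies, so their features may read each other's transcripts.

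**Figure D5:**
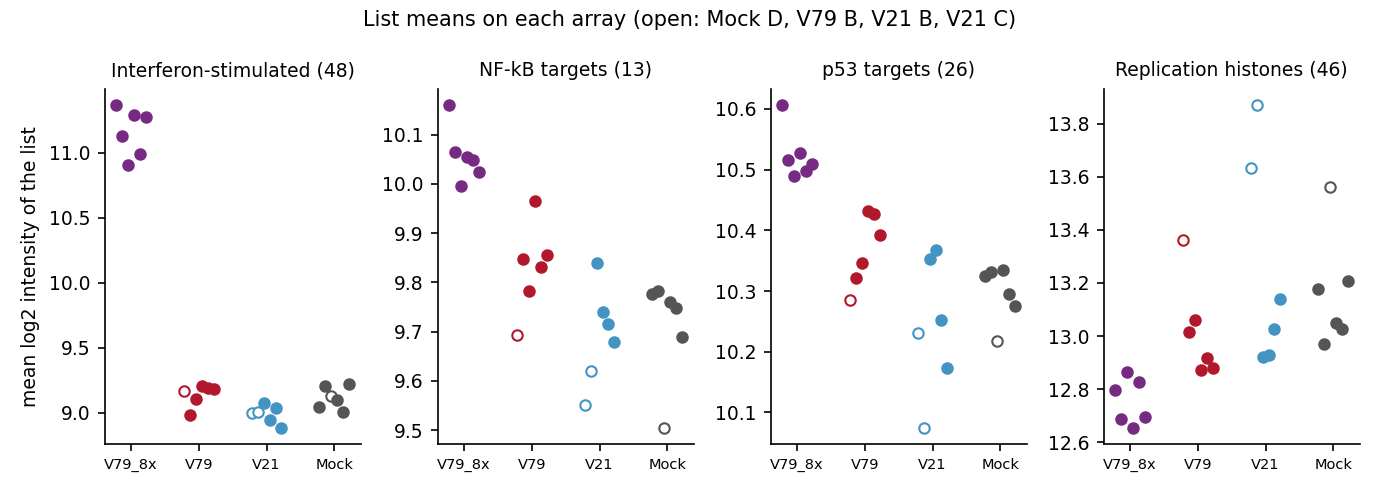
Mean log2 intensity (y axis) over the tested members of 4 lists on each array (points) of the V79_8x, V79, V21 and Mock groups, with arrays V79 B, V21 B, V21 C and Mock D drawn open. For interferon-stimulated genes the V79 and Mock arrays overlap, at 8.98 to 9.21 and 9.01 to 9.22, and for the histones V79 B and Mock D are the highest of their groups.

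Replication-dependent histone genes, which are transcribed in S phase and whose mRNAs mostly lack a poly(A) tail, had the lowest list median. Of 46 tested, 41 had lower values in V79 cells, 7 had lower values with an unadjusted p under 0.05 (beside 0.917% of all genes), and 0 passed the threshold. The median was -0.098, and -0.064 with 40 lower values without the 4 arrays that stood apart. The mean over the 46 genes lay from 12.87 to 13.36 on the V79 arrays and from 12.97 to 13.56 on the Mock arrays, so the groups overlapped. The highest values, 13.36 and 13.56, were those of V79 B and Mock D, so these genes moved with the arrays that stood apart.

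Among the histone types, H2A and H4 had the lowest medians. The 11 tested H4 genes had a median of -0.11, with 9 lower and 5 of these at an unadjusted p under 0.05, and the 10 H2A genes had a median of -0.16, with 10 lower and 2 such. The 5 H1 genes had a median of -0.098, with 4 lower, close to that of H4. The 11 H2B genes had a median of -0.088, with 11 lower, and the 9 H3 genes one of -0.032. Without the 4 arrays that stood apart the medians were -0.163 for H2A, -0.094 for H4 and -0.092 for H1. They were then -0.052 for H2B and -0.004 for H3. H4C6 measured 12.66 to 13.08 on the V79 arrays (median 12.86) and 12.97 to 13.69 on the Mock arrays (median 13.50). The ranges overlapped through Mock F, the lowest Mock array, and the difference was -0.56 ± 0.13 (limma, adjusted p = 0.83). H4C9 averaged 13.09 ± 0.18 in V79 cells and 13.56 ± 0.28 in Mock cells, a difference of -0.47 ± 0.12, and H4C11 averaged 14.78 ± 0.29 and 15.38 ± 0.31. The H4 genes code for the same protein and are close in sequence, so these features may not be independent readings. With all arrays, V21 cells differed from Mock cells by a median of 0.017 over the H4 genes and 0.13 over the H2A genes. These medians include V21 B and V21 C, where the mean over the histone list was highest, at 13.635 and 13.87. On V21 D to G that mean was 12.92 to 13.14, and on the Mock arrays besides Mock D it was 12.97 to 13.21. Whether V21 cells differ from Mock cells at the H2A genes without the arrays that stood apart was not tested. The 5 H4 genes named among the smallest p were also lower in V21 than in Mock cells, from -0.34 for H4C6 to -0.21 for H4C8, and V79 minus V21 for them ran from -0.27 to -0.18. The V79 and V21 differences share the Mock arrays.

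Genes of DNA replication and mitosis were set beside the histones. S phase genes (30 tested) had a median of -0.023 and G2/M genes (32 tested) one of -0.041, with 0 past the threshold. CDK1, the kinase that drives entry into mitosis, averaged 12.89 ± 0.08 in V79 cells and 12.98 ± 0.07 in Mock cells. PCNA, the clamp of the replication fork, averaged 13.20 ± 0.17 and 13.36 ± 0.11, and its lowest V79 value was 12.87 on V79 B.

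FMR1 itself did not pass the test. Its brighter feature measured 9.40 to 10.40 on the V79 arrays (median 9.86) and 9.67 to 10.25 on the Mock arrays (median 9.87), a difference of -0.098 ± 0.15 (limma, adjusted p = 1). Its other feature averaged 8.07 ± 0.46 in V79 cells and 7.97 ± 0.23 in Mock cells. The sources used here do not say whether either feature lies in the stretch carried by the plasmid, so these values do not show whether the insert was expressed. Of 7 tested genes of the FMRP family and its CYFIP partners, which link FMRP to actin and to translation, 0 passed and the median was -0.057. CYFIP2 averaged 8.998 ± 0.17 in V79 cells and 8.83 ± 0.21 in Mock cells, and CYFIP1 averaged 12.07 ± 0.14 and 12.18 ± 0.20.

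Proteins described with CGG repeat RNA had a median of -0.043, with 19 of 27 lower and 0 past the threshold. SRSF1, a splicing factor, averaged 8.88 ± 0.06 in V79 cells and 8.99 ± 0.05 in Mock cells, with 5 of 6 V79 arrays below every Mock array and a difference of -0.11 ± 0.06. TRA2B, another splicing regulator, measured 13.37 to 13.85 on the V79 arrays and 13.69 to 14.14 on the Mock arrays. Known FMRP target mRNAs (27 tested) had a median of 0, with DLG4 and SHANK3, scaffolds of the postsynaptic density, at differences of 0.16 ± 0.07 and 0.14 ± 0.08. The V21 cells gave nearly the same difference from Mock cells for both, 0.17 and 0.16, and V79 minus V21 was -0.005 and -0.012.

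Noradrenergic and neuronal genes had a median of -0.0017 over 27 genes, and 0 passed. ISL1 had the lowest value of the list at -0.27, and SCG2, a granin of secretory vesicles, differed by -0.20 ± 0.13, or by -0.096 without the 4 arrays. The mesenchymal list, which marks the other main state of neuroblastoma cells, had a median of 0.0083 over 26 genes. NOTCH3, a receptor of that state, averaged 13.21 ± 0.12 in V79 cells and 13.04 ± 0.06 in Mock cells. Only 5 of 16 listed glial genes were bright enough to test, and none passed.

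Genes linked to the carrier disorders did not pass either. Of 23 tested neurodegeneration genes, 17 had higher values, with a median of 0.025, and HTT, the huntingtin gene, differed by 0.16 ± 0.08. Ovarian insufficiency genes (13 tested) had a median of 0.045. POLG, the mitochondrial DNA polymerase, averaged 11.55 ± 0.05 in V79 cells and 11.44 ± 0.07 in Mock cells, and PGRMC1, a membrane progesterone receptor component, averaged 12.58 ± 0.11 and 12.75 ± 0.13.

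Stress and metabolic lists stayed close to the value for all genes, with 0 genes past the threshold in each. The median was 0.020 for the integrated stress response (28 tested), 0.033 for ER chaperones (17), -0.048 for heat shock genes (22) and -0.013 for NRF2 targets (18). SDF2L1, an ER protein that rises in unfolded protein stress, averaged 15.92 ± 0.05 in V79 cells and 15.81 ± 0.09 in Mock cells, and V21 cells gave the same difference from Mock cells, 0.11. Medians were -0.005 for oxidative phosphorylation (36), 0.005 for hypoxia and glycolysis (27), -0.029 for cholesterol synthesis (22), 0.005 for ribosomal proteins (37), 0.012 for immediate early genes (29), 0.027 for autophagy (25), -0.0067 for TGF-beta and activin genes (23) and -0.015 for sphingolipid genes (23). In the iron list (12 tested, median 0.00083), STEAP3, which reduces iron in endosomes, differed by 0.25 ± 0.09 on its brighter feature and by 0.06 on its other.

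The V79_8x and V21 arrays share no array with V79 against Mock, so their intensities are of the same genes in other samples. The spread of each gene was estimated over all groups together, so both comparisons have the same standard error for a gene. Genes chosen by a small p tend to have a small standard error, which also favours passing in V79_8x against V21. The counts of chosen genes that passed there are therefore no independent test. In V79_8x against V21, 431 of 15045 genes passed (2.86%), 2.19% of all genes as higher and 0.678% as lower in V79_8x cells. Of the 12 genes with higher values named above, 10 were also higher in V79_8x than in V21 cells and 7 passed. These were SERPINA3 (0.86), ICAM1 (0.83), SLC12A7 (0.42), VWCE (0.45), IL4I1 (1.29), FDCSP (0.64) and WDR86 (0.29), all higher in V79_8x cells. DOT1L (-0.06) and ZNF692 (-0.02) had the opposite sign there. All 12 genes with lower values were also lower in V79_8x cells, and the 5 that passed were the histone H4 genes, from -0.62 for H4C8 to -0.51 for H4C15. ISL1 differed by -0.10 and EPS8 by -0.14 there, and neither passed (limma, adjusted p = 0.34 and 0.17). Of the 406 genes with an unadjusted p under 0.05 in V79 against Mock, 293 had the same sign (72.2%), beside 50.7% of all genes, and 64 passed. Without the 4 arrays that stood apart, those 406 genes had the same sign in 324 cases (79.8%), beside 55.2% of all genes. V79_8x cells differ from V21 cells in the 8x mark as well as in repeat length, so these values are no test of repeat length alone.

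The comparisons that share arrays with V79 against Mock are given by their counts. V21 against Mock had 0 genes past the threshold by limma and 486 with an unadjusted p under 0.05 (3.23%), and V79_8x against Mock had 331 past it (2.2%). V79_8x against V79 had 173 past the threshold (1.15%), 153 higher and 20 lower in V79_8x cells, where V79 against Mock had 1.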

How the data were processed

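The authors' deposited table of log2 intensities was used, from 1-colour Agilent arrays of Cy3-labelled RNA (100 ng per sample), per the labels' protocols. The sources used here do not describe the authors' background correction or normalisation, beyond array names that start with IntNorm, per the labels. All 24 array medians were 6.7 and the sorted values of any pair of arrays differed by at most 0.01, so the values had been equalised between arrays, which hides any change common to most genes. Scanner files and detection flags were not used here.

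Features were named from the platform annotation, updated by accession (33705 features) or former symbol (644), with 2702 platform symbols kept and 25925 features without a gene. The brightest feature stood for each of 20061 genes, and 15045 genes with a mean over 6.43 entered lmFit and eBayes of limma 3.58.1 (two-sided, R 4.3.3), with 4 groups and no covariates. The number of arrays limits precision: the median standard error was 0.098. On simulated data for 15045 genes, the fit for V79 against Mock recovered 79% of 100 differences of 0.6 and 93% of 100 differences of 1. It called 4 unchanged genes. The simulation held many changed genes, which loosens the p cutoff after adjustment, and independent noise with no arrays that stand apart. These shares may therefore overstate what the fit could find in the real arrays.

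Named genes were the 12 with the largest rise and the 12 with the largest fall past the threshold, filled by the smallest p, then FMR1, and for each list up to 3 members past the threshold or the 2 with the smallest p (81 genes). The members and the 31 lists were chosen with earlier results of these data known. Of 809 listed genes, 33 lacked a named feature and are not analysed here. Experiment letters were not treated as pairs: deviations from the group means correlated over 0.1 in all 6 same-letter pairs for V79_8x with Mock (0.18 to 0.57), and in 1 to 3 of 6 for each other pair of groups. In all, 12 alternatives plus leaving out each of 24 arrays in turn were run.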

Additional observations from a re-analysis of the deposited data

Results flagged for a closer look

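For the 81 named genes, each group's highest and lowest array was compared with the rest of its group by Dixon's ratio, the gap to the nearest array over the group's range, against its 95% critical value for 6 arrays. Of 162 groups, 12 had an array past it, where chance gives about 1 in 20. Of these arrays 6 were V79 B and 3 were Mock D, both described above as standing apart.

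On V79 B, the lowest value of its group was 6.29 for EGR3 and 8.58 for NR4A3, both immediate early transcription factors, 12.87 for PCNA, 10.39 for IDI1, an enzyme of cholesterol synthesis, and 6.26 for SGPP2, a sphingosine phosphate phosphatase. MT1A, a metallothionein, had its highest V79 value there at 13.01. On Mock D, the lowest value of its group was 7.32 for IL4I1, 6.18 for FDCSP and 8.36 for STEAP3. Without the 4 arrays that stood apart, the V79 minus Mock difference was 0.30 for IL4I1, 0.36 for FDCSP and 0.22 for STEAP3, against 0.39, 0.36 and 0.25 with them.

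The remaining values were the lowest of their groups: 8.54 for DOT1L on Mock E, 8.21 for ERAP2 on Mock G and 10.96 for ZNF692 on V79 C. Without Mock G the ERAP2 difference was 0.13, against 0.22 with it. For DOT1L the other 5 Mock arrays measured 8.93 to 9.07, all below the lowest V79 array at 9.10.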

How the results depend on the processing

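The count of 1 gene for V79 against Mock was the same under 8 of 12 alternatives and whenever 1 of the 24 arrays was left out (lowest 1, highest 1). It was 0 with only the V79 and Mock arrays in the fit (limma, 519 genes at an unadjusted p under 0.05), where SERPINA3 had an adjusted p of 0.098, and 0 with the dimmest 50% of genes left out (limma, 329 genes), where SERPINA3 was not among the genes tested. It was 3 with array weights (SERPINA3, ICAM1 and ISL1; 1878 genes at an unadjusted p under 0.05) and 2 with every feature tested on its own, both features of SERPINA3 (824 features). Without the 4 arrays that stood apart, the count was 1 for V79 against Mock, 0 for V79 against V21 (limma, 334 genes at an unadjusted p under 0.05), 597 for V79_8x against Mock and 274 for V79_8x against V79. The cause was not tested, except that fewer arrays or genes enter by construction. With the experiment letter as a replicate block the counts were 1 (SERPINA3) for V79 against Mock, 0 for V21 against Mock (limma, 748 genes at an unadjusted p under 0.05), 1 for V79 against V21, 349 for V79_8x against Mock, 185 for V79_8x against V79 and 537 for V79_8x against V21. The letters did not pair V79 with Mock arrays: deviations of the same letter had correlations from -0.26 to 0.39 (2 of 6 over 0.1), and 0 of 6 V79 arrays correlated best with their own letter. Of 2905 values of the 81 named genes under the alternatives, 2902 kept their direction and side of the threshold, 1 lost the call (SERPINA3, above), 2 gained it (ICAM1 and ISL1 with array weights) and 0 reversed. SERPINA3 differed by 0.43 to 0.60 over the alternatives that tested it, with adjusted p from 0.00011 to 0.098. All 31 list means moved by less than 1 SD without the 4 arrays. Signal over background is not known, so dim genes such as SERPINA3, FDCSP and HPCAL4 are the least certain in size.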
